A study of Mus musculus with 2 samples.

Results

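YY1 binding was examined at the mouse genes of DNA repair, taken as the protein-coding genes of the GENCODE M21 basic annotation whose symbols belong to the Fanc, Rad50 to Rad54, Xrcc, Ercc, Msh, Mlh, Brca, Parp, Shld, Atm, Atr and Lig families. The naming rule gave 65 genes of 21938 protein-coding genes. It reads names and no measurement, so it also took in some genes that carry a family name without being known as repair factors. The data are the peak list of 1 YY1 ChIP-seq library, an assay in which DNA held by a protein is recovered with an antibody and sequenced, so that bound sites stand out as stacks of fragments. The cells were muscle stem cells (MuSCs), the resident progenitors of skeletal muscle, sorted from several Ctrl mdx mice and mixed into 1 library. Ctrl mice carried Pax7CreERT2/R26YFP, in which the Pax7 promoter drives an inducible Cre in MuSCs, with both Yy1 alleles intact (Yy1+/+), on the dystrophin-deficient mdx background. The sample labels differ from the Methods in that they describe cultured cells and a WT genotype, and they call the background library input, which the Methods describe as IgG serving as input. That library was not analysed on its own here. No expression was measured with these peaks, so the identity of the cells was not checked against marker genes.

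YY1 is a zinc-finger transcription factor that binds many promoters close to the start site through the motif AANATGGC. DNA repair is divided among pathways that handle different lesions. Crosslinks between the strands are handled by the Fanconi anaemia proteins, double-strand breaks by homologous recombination or end joining, bulky lesions by nucleotide excision repair, mispaired bases by mismatch repair, and single-strand breaks and damaged bases by base excision repair. Many of the genes are expressed in most cell types and have CpG-rich promoters, and several are transcribed head to head with a neighbour.

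A gene was counted as bound when the summit of a peak lay within 1000 bp of one of its transcript starts. YY1 peaks were found at 18 of the 65 DNA repair genes, which is 27.7% (exact binomial interval 17.3 to 40.2), against 18.8% of all protein-coding genes (4119 of 21938, interval 18.3 to 19.3). The interval of the repair genes includes the share of all genes, and it covers counting error only. Lig4 had 2 peaks and the other bound genes 1 each, so 19 peaks were described. The peak list holds 4681 peaks, of which 3971 have their summit in a promoter window, and the library held about 13400000 fragments as worked out from its most frequent background. Since there is 1 library, no value below has an error between mice, and no test between genes was made.

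Sorted by role, the 65 genes fell into 11 groups. The remaining PARP family and the genes placed in no pathway, labelled as matched by name only in the figures, are not pathways as such. A place in the latter group does not mean that a gene has no part in repair. The counts per group are small, with 1 bound gene in 5 of the groups, and are given below as a description beside the 18.8% of all genes. Fold enrichment, the ratio of fragments at the summit to the local background with 1 added to both, had a median of 5.44 over the strongest peak of each bound gene, with a range from 3.03 to 11.04, beside a median of 5.13 over all promoter peaks. Shld2, Brca2, Rad54l2 and Fancf had the highest values, and Parp12, Rad52, Msh6 and Atr the lowest. For 16 of the 19 peaks the counting interval of the fold enrichment included the median of all promoter peaks. The peaks at Shld2 and Brca2 lay above it and the peak at Parp12 lay below it.

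**Figure D1:**
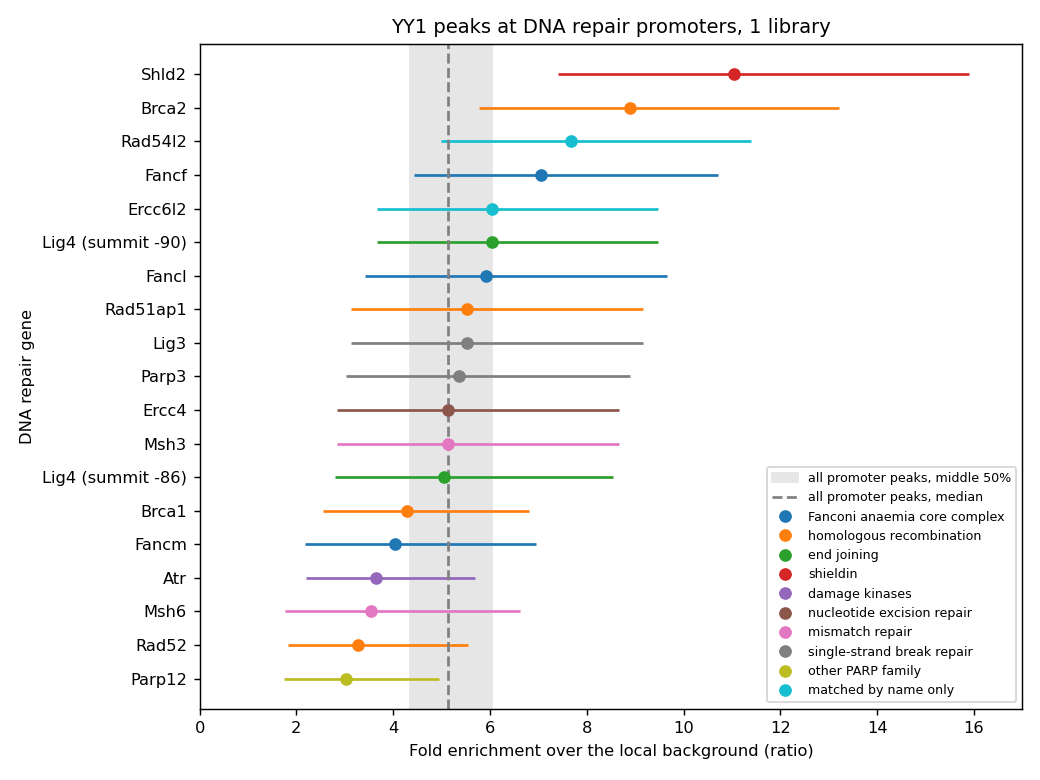
Fold enrichment (ratio, horizontal axis) of the 19 YY1 peaks at DNA repair genes, coloured by role. Points are the deposited values, lines are exact Poisson intervals for counting error at a fixed background, the dashed line is the median of all promoter peaks (5.13) and the grey band their middle 50% (4.34 to 6.05); only the intervals of Shld2 and Brca2 lie to the right of the line, and only that of Parp12 to the left.

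The highest YY1 signal among the repair genes was at Shld2, a subunit of shieldin, the complex that protects the ends of double-strand breaks from resection. Its peak at chr14:34310324-34310730 (mm10, 407 bp) had 27 fragments at the summit (interval 17.8 to 39.3) over a background of 1.54, a fold enrichment of 11.04 (7.41 to 15.9) and a p-value of 1.23e-25 from the authors' peak caller. Of all promoter peaks, 99.6% had a lower fold enrichment. The summit lay 167 bp upstream of Shld2 and 194 bp upstream of Glud1, which encodes glutamate dehydrogenase and is transcribed away from Shld2 from a start 361 bp off, so the peak cannot be given to either gene alone. Shld1, the other shieldin gene measured, was unbound, with the nearest summit 424 kb away. The sequence at the Shld2 summit is printed 5′ to 3′ on the strand of Shld2 (chr14:34310483-34310583), because it is the strongest of the set. It holds no match to the YY1 motif, and the capitals in the shorter line mark the one ETS word (CCGGAAG) near the summit.
Shld2 summit: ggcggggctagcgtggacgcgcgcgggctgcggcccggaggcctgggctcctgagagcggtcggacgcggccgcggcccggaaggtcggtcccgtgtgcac
Shld2 ETS word: gcggccgcggcCCGGAAGgtcggtcccgt

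Genes of homologous recombination copy the lost sequence from an intact sister strand. In this group 4 of 14 genes were bound, namely Brca1, Brca2, Rad51ap1 and Rad52. Brca2 prepares single-stranded DNA for strand exchange. Its peak at chr5:150522464-150522794 had 23 fragments (14.6 to 34.5) over a background of 1.70 and a fold enrichment of 8.89 (5.77 to 13.2), above 97.8% of promoter peaks. The summit lay 45 bp upstream of the start, in no other gene's window. Around this summit (chr5:150522555-150522615, plus strand) the sequence holds a cyclic AMP response element (TGACGTCA), shown in capitals in the line below, 20 bp from the summit.
Brca2 summit: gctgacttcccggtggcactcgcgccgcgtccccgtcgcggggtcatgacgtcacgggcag
Brca2 CRE: tcgcggggtcaTGACGTCAcgggcagagcg

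The peak at Brca1, a scaffold for recombination and the damage checkpoint, had a lower fold enrichment than that at Brca2. At chr11:101551877-101552303 it had 16 fragments (9.15 to 26.0) over a background of 2.96 and a fold enrichment of 4.29 (2.56 to 6.81), and this interval overlaps that of Brca2. The summit was 258 bp upstream of Brca1 but 12 bp upstream of Nbr1, an autophagy receptor gene that starts 270 bp away on the other strand. Rad51ap1, which stimulates strand exchange, had a peak at chr6:126939750-126940007 with 13 fragments (6.92 to 22.2) and a fold enrichment of 5.52 (3.12 to 9.16). Here too the summit was nearer to the partner: it lay 280 bp upstream of Rad51ap1 and 99 bp upstream of D6Wsu163e. The peak at Rad52, which anneals single strands, lay at chr6:119902518-119903089 in an intron, 62 bp downstream of the start and 185 bp upstream of the lincRNA 4930540M05Rik. It had 12 fragments over a background of 2.96, a fold enrichment of 3.28 (1.82 to 5.54), and its q-value of 0.025 was one of 3 above 0.01 among the repair peaks.

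Most genes of this group had no YY1 peak in the list. Rad51b, Rad51c, Rad51d, Xrcc2 and Xrcc3, which assist strand exchange, and the Rad54 motor proteins Rad54l and Rad54b were all unbound, with the nearest summit between 19.4 kb (Rad51d) and 436 kb (Rad51b) away. Rad50, a subunit of the break-sensing complex, was unbound at 56.2 kb, and Rad51ap2 at 190 kb. An absent peak means that the limit of the peak caller was not reached at this depth. At the background of 1.54, at least 8 fragments, a fold enrichment of 3.55, were needed to pass the p-value limit of 0.0001.

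In the Fanconi anaemia core complex, the ubiquitin ligase that acts on stalled forks, 3 of 8 genes were bound: Fancf, Fancl and Fancm. Fancf, an adaptor that holds the complex together, had a peak at chr7:51861613-51861927 with 20 fragments (12.2 to 30.9) over a background of 1.98 and a fold enrichment of 7.06 (4.44 to 10.7). Its summit lay 467 bp downstream of the start in exon 1, the largest distance among the bound repair genes and thus the nearest to the 1000 bp limit on its inner side. Fancl is the ligase subunit. Its peak at chr11:26387149-26387508 had 14 fragments (7.65 to 23.5) and a fold enrichment of 5.92 (3.41 to 9.66), with the summit 159 bp downstream of an inner start of the gene. Fancm, the motor that brings the complex to DNA, had a peak at chr12:65075736-65076022 with 11 fragments (5.49 to 19.7) and a fold enrichment of 4.03 (2.18 to 6.95). This summit was in exon 1, 210 bp downstream of the start. Fanca, Fancb, Fancc, Fance and Fancg had no peak, and neither did Fancd2 and Fanci, the pair that the core complex ubiquitinates. Fancb, on the X chromosome, was the farthest of all members from a summit, at 1530 kb.

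Mismatch repair genes and their MutS and MutL relatives gave 2 bound genes of 7. Msh3 and Msh6 take part in recognising mispaired bases. Msh3 had a peak at chr13:92354841-92355188 with 12 fragments (6.2 to 21) and a fold enrichment of 5.13 (2.84 to 8.66), 46 bp downstream of its start in exon 1. At Msh6 the peak (chr17:87974916-87975198) was 5 bp downstream of the start. It had 8 fragments (3.45 to 15.8), the lowest number at any summit of the list, with a fold enrichment of 3.55 (1.76 to 6.61) and a q-value of 0.0532. Mlh3, Msh4 and Msh5 were among the unbound genes of this group.

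Nucleotide excision repair gave 1 bound gene of 7. This was Ercc4, the nuclease subunit that cuts on one side of the lesion together with Ercc1. The peak at chr16:13109731-13110102 had 12 fragments and a fold enrichment of 5.13 (2.84 to 8.66), 238 bp downstream of the start in exon 1. Ercc1 was unbound at 24.7 kb, and so were the helicases of the repair factor TFIIH, Ercc2 and Ercc3, the nuclease Ercc5, and Ercc6 and Ercc8, which act on stalled RNA polymerase.

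Of the 4 genes of end joining, Lig4 was bound and Xrcc4, Xrcc5 and Xrcc6 were not. Lig4 is the ligase of this pathway and works in a complex with Xrcc4, while Xrcc5 and Xrcc6 form the Ku ring that grips the broken end. Each of the Lig4 peaks stood at its own start. The peak at chr8:9977387-9977963 had 12 fragments (6.2 to 21) over a background of 1.57, a fold enrichment of 5.06 (2.80 to 8.54), and lay 86 bp upstream of the outer start and 55 bp downstream of Abhd13. The other peak, at chr8:9976279-9976496, lay in an intron of the longer transcript, 90 bp upstream of the inner start, with 17 fragments (9.9 to 27.2), a background of 1.98 and a fold enrichment of 6.05 (3.66 to 9.48). Both Lig4 windows contain an ETS word, and the one at the outer start also contains the palindromic word of NRF1. They are shown on the strand of Lig4, with the word in capitals, because Lig4 is the repair gene with more than 1 peak and its peaks share a word; CTTCCGG is CCGGAAG read on the opposite strand.
Lig4 inner start, ETS word: tgtggcggcagCTTCCGGtcggagtgggg
Lig4 outer start, ETS word: cgcagcctccaCTTCCGGctcgcgcgcgg
Lig4 outer start, NRF1 word: gcacccctatGCGCATGCGCaggacactgg

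The kinases Atm and Atr start the signal after damage, Atm from double-strand breaks and Atr from single-stranded DNA. Atr was bound and Atm was not. The Atr peak (chr9:95857623-95857856) had 17 fragments (9.9 to 27.2), but the background of 3.95 was also the highest of the set, shared with Parp12, and the fold enrichment was 3.64 (2.20 to 5.70). Its summit lay 38 bp upstream of the nearest start, in the first exon of another Atr transcript, and 151 bp upstream of the antisense gene 1700065D16Rik. Atm shares a divergent promoter with Npat, with starts 307 bp apart, and the nearest summit was 286 kb away.

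Single-strand breaks and damaged bases are repaired by ligases, scaffolds and ADP-ribosyl transferases, of which 2 of 6 were bound. Lig3, the ligase that works with Xrcc1, had a peak at chr11:82781141-82781589 with 13 fragments (6.92 to 22.2) and a fold enrichment of 5.52 (3.12 to 9.16), in an intron 259 bp downstream of the nearest start. Parp3, a transferase that responds to strand breaks, had a peak at chr9:106476939-106477302 with 13 fragments and a fold enrichment of 5.36 (3.03 to 8.89). The summit lay 193 bp upstream of Parp3 and 127 bp upstream of Rrp9, a gene of ribosomal RNA processing. The main break sensors Parp1 and Parp2, the scaffold Xrcc1 and the replicative ligase Lig1 had no peak.

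Among the remaining members of the PARP family, most of which are not known as core repair enzymes, 1 of 9 was bound. Parp12 had a peak at chr6:39118024-39118361, 149 bp downstream of the start in exon 1, with 14 fragments over a background of 3.95. Its fold enrichment of 3.03 (1.75 to 4.95) was the lowest of the set, and its q-value was 0.0289. Parp4, Parp6, Parp8, Parp9, Parp10, Parp11, Parp14 and Parp16 were unbound. Of the 4 genes placed in no pathway here, Ercc6l2 and Rad54l2, both of the SNF2 family of ATP-driven DNA translocases, were bound, while Ercc6l, a mitotic relative, and Fancd2os were not. Rad54l2 had a peak at chr9:106789022-106789363 with 23 fragments (14.6 to 34.5) over a background of 2.12, a fold enrichment of 7.68 (4.99 to 11.4), higher than 93.3% of promoter peaks, and its summit was 7 bp from the start. Ercc6l2 had a peak at chr13:63814992-63815622, the widest of the set with 631 bp, with 17 fragments and a fold enrichment of 6.05 (3.66 to 9.48).

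Some proteins that work as a pair had 1 bound and 1 unbound gene. Lig4 was bound without Xrcc4, Lig3 without Xrcc1, Ercc4 without Ercc1 and Shld2 without Shld1. Other pairs were alike, with Xrcc5 and Xrcc6 both unbound and Fancd2 and Fanci both unbound. The pairs were picked after the values were seen, so they give no tally of pairs, and whether the binding of partners differs was not tested.

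The nearest summit of the 47 unbound genes was at a median of 77.2 kb, 14 of them had a summit within 50 kb, and 13 had none within 200 kb. The nearest outside the limit was Parp4 at 3901 bp, and that summit lay in a promoter window of Cenpj, the gene divergent from Parp4. Msh4 followed at 6893 bp and Xrcc1 at 14784 bp. Inside the gene but away from its own promoter windows, 0 of the 65 members had a YY1 summit (interval up to 5.52%), beside 2.05% (450) of all protein-coding genes. The interval includes that share.

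**Figure D2:**
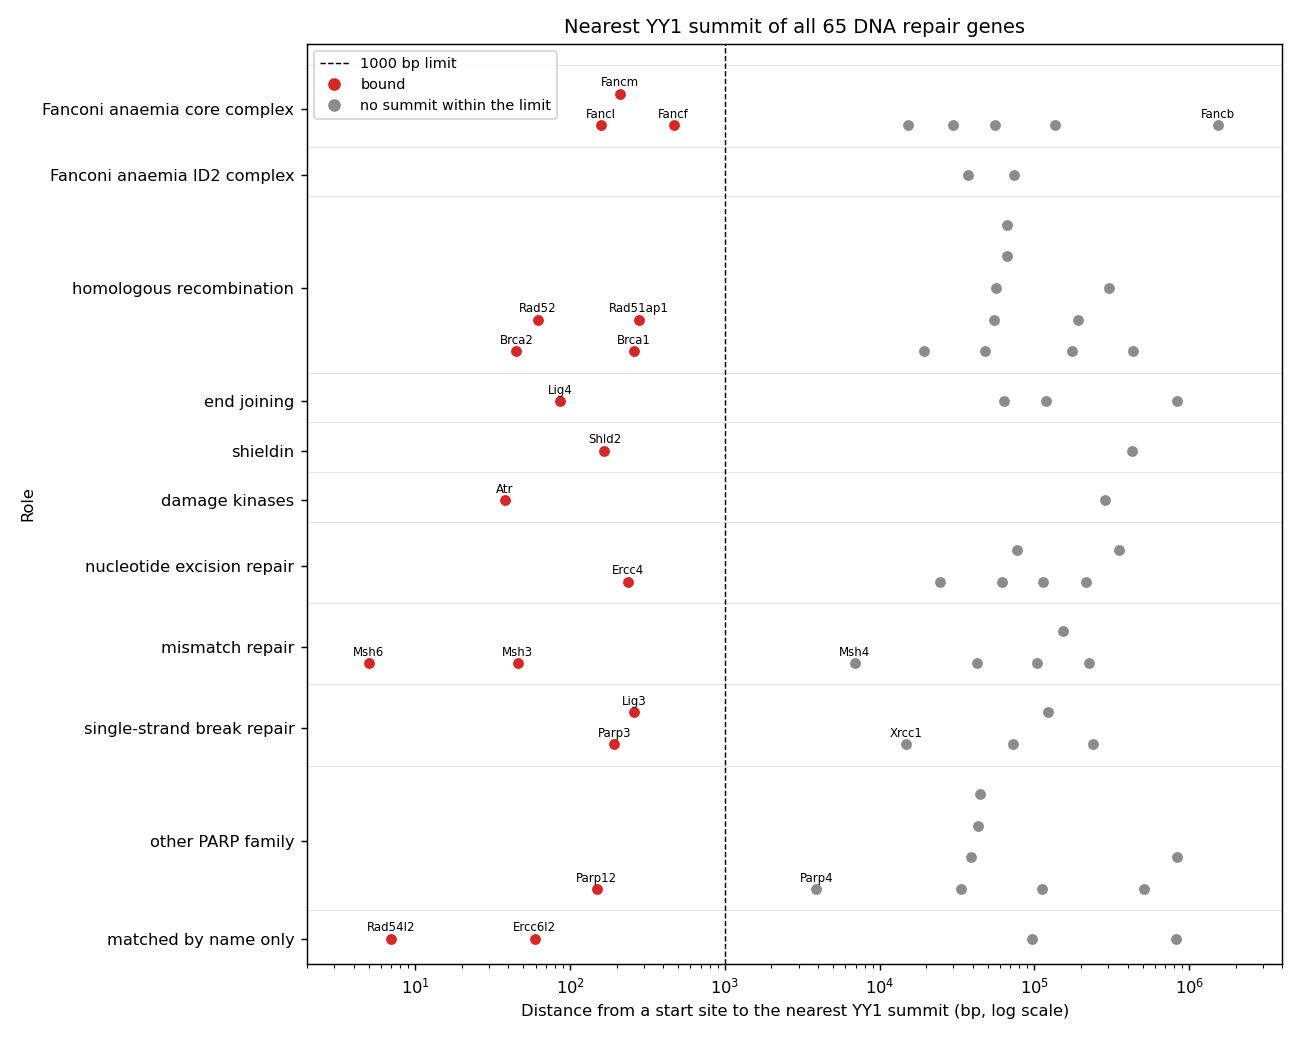
Distance from a transcript start to the nearest YY1 summit (bp, log scale) for the 65 DNA repair genes, in rows by role, with names for the bound genes, for the 3 unbound genes nearest to a summit and for Fancb, the farthest. Bound genes (red) lie between 5 and 467 bp, and unbound genes (grey) between 3901 bp and 1530 kb, with no gene between 467 and 3901 bp around the dashed limit of 1000 bp.

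The summits stood close to the starts on both sides. For the peak nearest to a start of each bound gene, 9 summits were upstream and 9 downstream, while 50.9% were upstream over all bound protein-coding genes. The distances below use the same choice of peak in both sets. Within 100 bp of a start were 8 (44.4%, beside 48.8%), and within 300 bp were 17 (94.4%, beside 84.9%). The median distance was 154 bp against 104 bp for all bound genes. A summit that also lay in the window of another protein-coding gene was seen at 6 of 18 genes (33.3%, beside 26.0%), among them Lig4, Brca1, Rad51ap1, Shld2 and Parp3. For Lig4 this was the peak with the lower fold enrichment. Counting non-coding genes as well, 11 of 18 genes shared a peak (61.1%, beside 40.1%), with Atr, Fancm, Lig3, Parp12 and Rad52 added. No counting interval was computed for the shares of this paragraph, which rest on 18 genes. Whether sharing differs from that of all bound genes was not tested. Each of the shared partners was on the opposite strand.

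**Figure D3:**
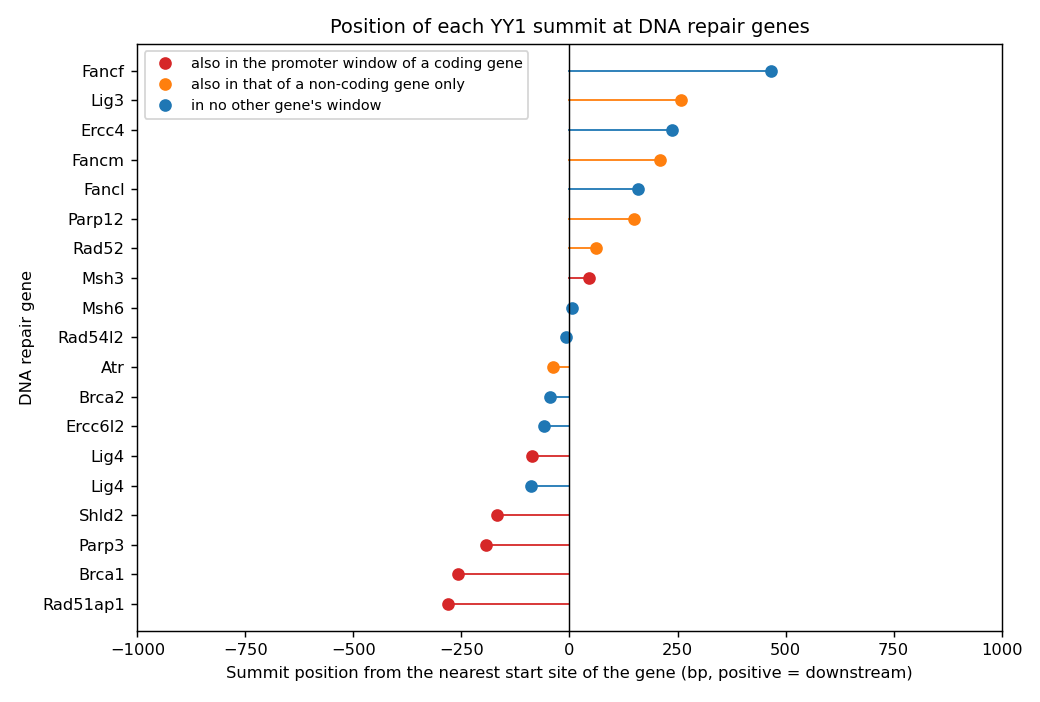
Position of each of the 19 YY1 summits relative to the nearest start site of its repair gene (bp, positive values downstream). Colours show whether the summit also lies in the 1000 bp window of a coding gene (red, 6 peaks), of a non-coding gene only (orange, 5) or of no other gene (blue, 8); 5 of the red points lie upstream of the start, and Fancf is farthest at 467 bp.

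Many repair genes had a divergent promoter, and the share bound among them was counted without and with non-coding partners. With a divergent gene defined as a protein-coding start on the other strand up to 1000 bp upstream, 18 of the 65 genes (27.7%) had one, beside 9.01% of all protein-coding genes. Of these 18, 5 were bound (27.8%, interval 9.69 to 53.5), and of the 47 without one, 13 were bound (27.7%, 15.6 to 42.6). Over all protein-coding genes the shares were 43.9% (867 of 1976) and 16.3% (3252 of 19962). When non-coding partners were counted as well, 23 repair genes were divergent, of which 9 were bound (39.1%, 19.7 to 61.5), and 9 of the other 42 were bound (21.4%, 10.3 to 36.8), beside 39.1% and 15.3% of all protein-coding genes. The intervals of divergent and other repair genes overlap under both definitions. Those of the divergent class also overlap between the definitions, so no dependence on the definition is read from them. Among the 13 unbound divergent genes were Fancd2 with Emc3, Fancb with Mospd2, Atm with Npat, Xrcc4 with Tmem167, Xrcc6 with Desi1, Rad51b with Zfyve26, Rad51c with Tex14, Xrcc3 with Zfyve21, Ercc8 with Ndufaf2, Parp4 with Cenpj, Lig1 with Zswim9 and Xrcc1 with Pinlyp.

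The repair genes were also described by the CpG content of their promoters. A promoter was called CpG-rich when its ratio of observed to expected CpG was over 0.6 in the 300 bases from 250 before to 50 after the start of the gene record. By this limit 48 repair genes (73.8%) were CpG-rich, beside 44.3% of protein-coding genes. Of the CpG-rich repair genes 17 were bound (35.4%, interval 22.2 to 50.5), beside 34.8% of all CpG-rich genes, and of the 17 others 1 was bound (5.88%, 0.149 to 28.7), beside 5.99%. The intervals of both classes of repair genes overlap. That gene was Fancl, whose bound start lies inside the gene record, so that the 300 bases do not describe the bound start. The class with lower CpG content thus rests on 1 gene. In the other repair genes and in the cell cycle and origin genes, described below, 3 of 16 promoters of that class were bound in each list (18.8%, 4.05 to 45.6).

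**Figure D4:**
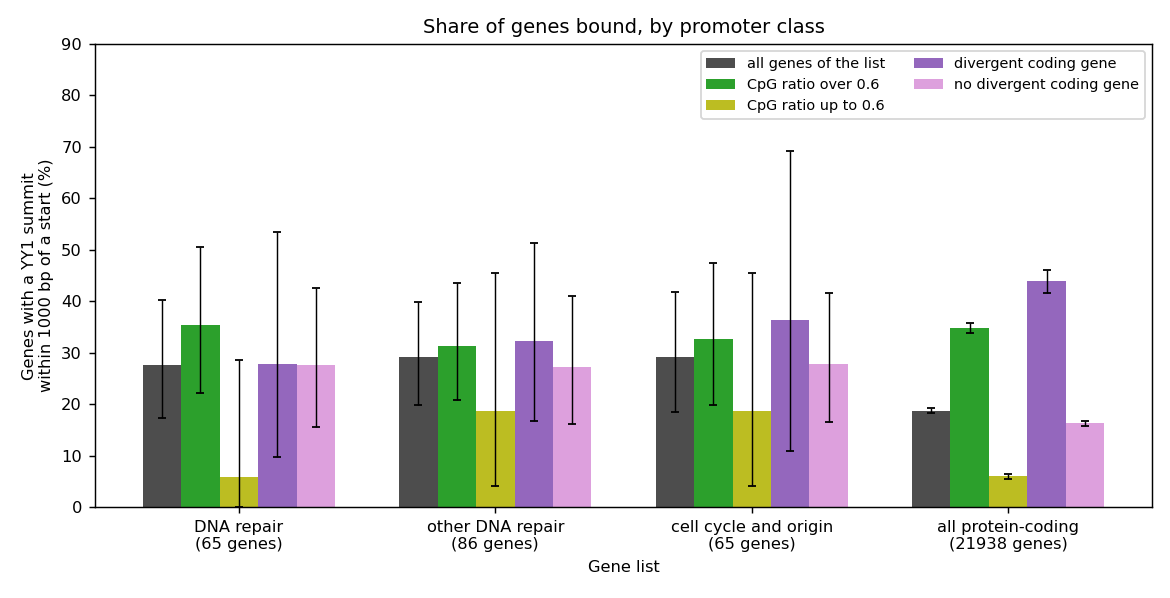
Share of genes with a YY1 summit within 1000 bp of a start (percent) in 4 gene lists, for all genes and by promoter class, with exact binomial intervals for counting error. The DNA repair genes have 35.4% of CpG-rich and 5.88% of other promoters bound, near the 34.8% and 5.99% of all protein-coding genes, while the divergent class has 43.9% in all genes and 27.8% in the repair genes, whose interval of 9.69 to 53.5 includes the former.

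The full YY1 motif was not found near these summits. AANATGGC on either strand within 100 bp was present at 0 of the 19 peaks (interval up to 17.6%), beside 7.35% of all promoter peaks, and it remained at 0 of 19 within 250 bp, beside 15.3%. The shorter core ATGGC, which the full motif contains, was present at 3 peaks (15.8%, interval 3.38 to 39.6), those at Fancm, Ercc4 and Parp12, beside 31.0% of promoter peaks. At Parp12 the ATG of the core is the annotated start codon. The matches are shown on the strand of the gene, with the core in capitals, and a further match at Parp12 on the opposite strand, which overlaps the printed one, is not marked. They are shown because they are the nearest matches to the YY1 site in the set.
Fancm: cgctcgcccgcgATGGCggaggcgctgcc
Fancm, the second core: tggatcccggggATGGCggcttctgcgcg
Ercc4: gaacggcggagtATGGCgccgctgttgga
Parp12: agtccgacggccATGGCccaggccgcggt

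In the 300-base promoters, the full motif was found at 3 of the 47 unbound repair genes (6.38%), beside 5.51% of all unbound protein-coding genes, and at 0 of the 18 bound ones, beside 8.99% of all bound genes. These counts are too small to show a difference between bound and unbound repair genes. These genes were Fancd2, Parp9 and Shld1. Their sequences are given from the strand of the gene, with the motif in capitals (GCCATCTT is the motif on the other strand), because they show sites with the motif and no peak.
Fancd2 (chr6:113531467-113531496): gctcgggccccGCCATCTTcgctgagagtt
Parp9 (chr16:35938341-35938370): tttacaacattAAAATGGCttggagtcgag
Shld1 (chr2:132686834-132686863): tgccctcagttAAGATGGCcgcagctgact

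Words of other promoter factors were searched on both strands within 100 bp of the summits. The ETS word CCGGAAG was at 5 of 19 peaks (26.3%, interval 9.15 to 51.2), namely Atr, both Lig4 peaks, Ercc4 and Shld2, beside 13.2% of promoter peaks. The NRF1 palindrome, in capitals in its sequences, was at 2 (10.5%, 1.30 to 33.1), Fancl and Lig4, beside 2.24%. The CCAAT box was at 4 (21.1%, 6.05 to 45.6), which were Brca1, Rad51ap1, Msh6 and Parp3, beside 16.3%. The Sp word GGGCGG was at 10 (52.6%, 28.9 to 75.6), beside 64.8%, and the response element TGACGTCA was at 1 (5.26%, 0.133 to 26.0), that of Brca2, beside 2.39%. Each of these intervals includes the share of all promoter peaks. The matches at Atr, Ercc4 and Fancl are printed beside those of Lig4, Shld2 and Brca2 above, with the word in capitals.
Atr, ETS word: accgagagcggCTTCCGGgaggagaattt
Ercc4, ETS word: cggccgcggtcCCGGAAGggcgcccatgg
Fancl, NRF1 word: ccgatactctGCGCATGCGCggtcgctagg

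In size and composition the peaks at repair genes were close to promoter peaks in general. The median number of fragments was 14 beside 15, the median background 1.70 beside 1.98, the median width 348 bp beside 363 bp, and the median GC content within 100 bp of the summit 70.1% beside 70.6%. The lowest GC content was 37.8%, at the peak between Rad51ap1 and D6Wsu163e, and the highest was 79.6%, at Lig3.

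Genes of DNA repair outside the naming rule, including direct reversal of damage and translesion synthesis, which have no role group above, were taken as a further list. Of these 86 genes 25 were bound (29.1%, interval 19.8 to 39.9), beside 18.8% of all protein-coding genes, with a median fold enrichment of 5.93 and a range from 2.60 to 9.86. The interval lies above the share of all genes. It covers counting error only, and the list was chosen with earlier results of these data known. The CpG-rich genes of the list were bound at 31.4%, beside 34.8% of all CpG-rich genes. The 5 with the highest fold enrichment were Alkbh3 (9.86), which reverses alkylation damage, Rad17 (9.75), which loads the checkpoint clamp, Rev1 (9.46), a polymerase that bypasses lesions, Nbn (8.68), a subunit of the break-sensing complex, and Usp1 (7.79), which removes ubiquitin from Fancd2. Cell cycle and replication origin genes, taken as a second list for comparison, had 19 of 65 bound (29.2%, 18.6 to 41.8) with a median fold enrichment of 5.38. The intervals of both lists include the 27.7% of the repair genes taken by name, and that of the cell cycle and origin genes also includes the 18.8% of all genes.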

How the data were processed

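According to the Methods, the authors aligned the trimmed reads, discarded duplicates and ran MACS2 against 1 background library with a p-value cutoff of 0.0001. The sample labels name Bowtie2 and MACS2 on mm10, and versions are not given in the sources used here. The deposited fold enrichment is a ratio computed by the authors' peak caller, and each peak also carries a deposited −log10 p-value and, adjusted for multiple testing, a −log10 q-value. The integer score column was not used. Greater depth would let weaker sites pass the limit. From the ratio and p-value a whole number of fragments and the local background were recovered for 100% of the 4681 peaks, within 0.001 of −log10 p. The depth was derived from the most frequent background, assuming the mouse genome size preset of MACS2 and the narrowest peak width (215 bp) as fragment length.

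Summits were placed against transcript starts of the GENCODE M21 basic annotation (GRCm38), leaving out mitochondrial genes. Sequence was read from the GRCm38 genome. Intervals are 95%, exact Poisson for fragments and for fold enrichment at a fixed background, and Clopper-Pearson for shares. Roles were assigned from background knowledge. The members and lists were chosen with earlier results of these data known. Named were each member by role, each protein-coding gene sharing a peak, the 5 other repair genes with the highest fold enrichment, and the genes nearest the limit, except some genes that are counted in the totals but not reported by name here. Partners of unbound divergent genes, non-coding partners, complex pairs and words other than the YY1 motif were added after values were seen. Scripts were tested on simulated data. Python 3.11.15, numpy 2.4.6, pandas 2.3.3, scipy 1.17.1 and matplotlib 3.10.9 were used.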

Additional observations from a re-analysis of the deposited data

How the results depend on the processing

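With 1 library, no replicate could be left out. No paired analysis was possible because each antibody has a single library, so that no replicates can be paired. The count of bound DNA repair genes was 18 with windows of 500 and 2000 bp, with any overlap of the peak and with coding transcripts only. It was 17 with gene-record starts (without Fancl) and 15 with a q-value under 0.01 (without Msh6, Parp12 and Rad52). It was 12 in the window from 1000 bp upstream to 100 bp downstream (without Ercc4, Fancf, Fancl, Fancm, Lig3 and Parp12), and also 12 at a fold enrichment of at least 5 (without Atr, Brca1, Fancm, Msh6, Parp12 and Rad52). The share of all protein-coding genes bound moved from 18.8% to 17.7% at 500 bp, 19.3% at 2000 bp, 14.6% from 1000 bp upstream to 100 bp downstream, 17.4% at a q-value under 0.01, 11.1% at a fold enrichment of at least 5 and 17.4% with gene-record starts. The shares of repair genes under these settings were 27.7%, 27.7%, 18.5%, 23.1%, 18.5% and 26.2%. The other DNA repair genes gave 18 to 26 bound under the same settings, which for this list were chosen after seeing the data. The median fold enrichment was 5.36 to 5.52, the full motif stayed at 0 of 19 peaks in each window and form tried, and the divergent genes numbered 17 within 500 bp (5 bound, beside 8.06% of all protein-coding genes being divergent) and 23 with non-coding partners (9 bound, beside 14.7%). In the latter setting the share bound was 39.1% of divergent and 21.4% of other repair genes.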

Other observations

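The repair genes outside the naming rule were grouped by role after the values were seen, and their counts are read beside the 18.8% of all protein-coding genes bound. Nucleotide excision repair had 9 of 12 bound, among them the damage sensors Xpc, Rad23b, Ddb1 and Ddb2, the scaffold Xpa and the TFIIH subunits Gtf2h1, Gtf2h2 and Gtf2h5. By the naming rule, 1 of 7 genes of the same pathway was bound. Damage signalling had 4 of 12 bound, namely Hus1 and Rad1 of the checkpoint clamp, its loader Rad17, and Atrip, the partner of the bound kinase Atr. Translesion synthesis had 2 of 6 bound, Rev1 and Rev3l, with Rad18, Polh, Poli and Polk unbound, and end joining and end protection had 1 of 9 bound, Mad2l2. Direct reversal had 1 of 3 bound, Alkbh3. Base excision repair had 3 of 19 bound (Ogg1, Tdg and Tdp2), recombination and resection 3 of 16 (Nbn, Palb2 and Gen1), Fanconi anaemia partners 2 of 6 (Usp1 and Faap100), and the mismatch repair genes Exo1, Pms1 and Pms2 none. Because these groups were formed after the values were seen, the counts carry no test and no difference between groups is read from them.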
